A study of Arabidopsis thaliana and Oryza sativa and Cucumis sativus with 30 samples.

Results

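The cell cycle genes described here are 35 Arabidopsis thaliana genes of 3 kinds, taken by family and not by any measured value: A-, B- and D-type cyclins, the cyclin-dependent kinases (CDKs) CDKA;1, CDKB1 and CDKB2, and the CDK inhibitors KRP1 and KRP2. Of the 35, 33 were listed among the 17628 genes of the table that compares rhd6 with wild-type epidermis, all 35 among the 33550 genes of the table on sorted hair cells, and 14 among the 14919 genes of the table on sieved root hairs. The 2 genes missing from the first table were CYCD1;1 and CYCD7;1. By the phase in which their products are known to act, 10 D-type cyclins were taken as G1 genes and 3 CYCA3 cyclins as S-phase genes. Another 6 genes, CYCA2 and CDKB1, were taken as acting from S phase to mitosis, and 13 genes, CYCA1, CYCB and CDKB2, as G2/M genes. CDKA;1, which acts in all phases, and both KRP genes complete the set.

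A CDK is a protein kinase that works only when bound to a cyclin, and the succession of cyclins sets the order of the phases. In plants, D-type cyclins with the A-type kinase phosphorylate the retinoblastoma-related protein and so release E2F factors for entry into S phase, CYCA3 cyclins accumulate in S phase, and B-type cyclins with the plant-specific CDKB kinases drive mitosis. KRP and SIAMESE-type proteins bind and inhibit the complexes, and in the root epidermis cells divide near the tip, then stop dividing, copy their DNA without division and, in hair files, grow a hair.

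All plants were Columbia seedlings, grown at 22 °C under constant light and taken 4 to 5 days after plating, per the labels. Wild-type WER::GFP and rhd6 WER::GFP cells came from pooled root tips, digested to single cells and sorted for GFP, with 3 libraries of each. The WER promoter is known to be active in young epidermis and lateral root cap, so the sort takes dividing and non-dividing cells of hair and non-hair files. The line rhd6 lacks function of RHD6, a bHLH transcription factor that starts hair growth, and its allele is not stated in the sources at hand. Wild-type COBL9::GFP cells were sorted in the same way with 3 libraries, the COBL9 promoter being known to mark cells that form hairs. Root hairs, also 3 libraries, were sieved from root tissue stirred in liquid nitrogen and prepared with another kit. In bulk samples, fewer cells of a type and less RNA per cell cannot be told apart.

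The WER::GFP table held 10562137 to 23110648 reads per library, and its values are normalized counts per 1e6 reads (normalized CPM). RHD6 fell in the mutant from 78.4 ± 6.09 to 1.40 ± 0.541 normalized CPM (SD, n = 3 each, limma adjusted p = 9.73e-05), and over all 17575 genes tested 724 were called (4.12%), 0.859% higher and 3.26% lower in rhd6. The 5 hair genes on the marker list were present in the wild-type WER::GFP sort, with a summed value of 623 to 1186 against 19.2 to 113 in rhd6, and WER was at 67.4 ± 11.8 and 96.0 ± 33.4. All 4 root cap markers were measured in every WER::GFP library, with sums of 163 to 195 in wild type and 110 to 441 in rhd6. For cortex and endodermis all 3 markers were measured, at 11.9 to 14.2 and 11.7 to 34.2, and for stele 4 of 5, at 166 to 354 and 125 to 274. Most of the stele sums was 1 gene, AHK4, with means of 231 in wild type and 178 in rhd6. The rhd6 libraries 10018 and 10019 were least alike of all WER::GFP replicates (r = 0.903 across genes, which are not independent replicates), and of the COBL9::GFP libraries, here A, B and C in the order of their table, library A stood apart from the other 2.

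Members of every phase were read in the wild-type epidermis, and the kinase common to all phases had the highest level. Levels of different genes are compared per kilobase (kb) of exon. CDKA;1 (AT3G48750) stood at 24.4 ± 1.11 normalized CPM per kb (SD, n = 3), at the 73.5th percentile of the genes of the table. CYCD2;1, a G1 cyclin, followed at 20.14 ± 2.39 and CYCA2;4 at 19.6 ± 1.37, and these 2 did not differ beyond their spread. At the other end were CYCA2;1 at 0.907 ± 0.153, CYCA2;2 at 1.34 ± 0.331, CYCD6;1 at 1.38 ± 0.369 and KRP1 at 1.42 ± 0.317. A mean of 1 or more per kb was reached by 32 of the 33 listed members.

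Among the G1 cyclins, which link outside signals to the start of a cycle, the 3 CYCD3 genes lay between 12.0 and 15.2 normalized CPM per kb, neighbours in that order not differing beyond their spread. CYCD5;1 was at 4.51 ± 1.34, and the 2 CYCD4 genes at 1.96 ± 0.0912 and 2.01 ± 0.652. In the S-phase group CYCA3;2 led with 14.7 ± 2.93, ahead of CYCA3;4 with 8.27 ± 0.800 and CYCA3;1 with 1.72 ± 0.664. The mitotic kinase CDKB2;1 had the highest level of the 13 G2/M genes, 15.9 ± 1.0. Below it came CYCB1;2 at 12.0 ± 0.928 and CYCB1;1, the cyclin most used as a reporter of mitotic cells, at 10.1 ± 0.929. The other G2/M genes lay between 1.67 and 8.61. KRP2, which binds complexes of the A-type kinase and restrains division, was at 7.59 ± 3.07, a wide spread between wild-type libraries.

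Sequences upstream of the members were searched for known motifs. The members were chosen by family and not by these sequences, but genes of the same family are not separate cases. Many mitotic genes of plants carry mitosis-specific activator (MSA) elements, read by MYB3R transcription factors, whose core is AACGG. In the 250 bases upstream of the annotated gene start (RefSeq annotation of TAIR10.1), at least 1 core on either strand was found in 9 of 13 G2/M genes (69.2%), against 5645 of 27443 protein-coding genes (20.6%). Only 1 of 10 G1 genes, 1 of 3 S-phase genes and 1 of 6 S-to-M genes held one, while both KRP genes did. The longer MSA consensus, which contains the core, was found in 4 G2/M genes (30.8%, against 0.4% of all), all B-type cyclins. The E2F motifs TTTCCCGC and TTTGGCGC, on either strand, were found in 1 member, CYCD3;3, against 1.0% of all windows. A match describes letters in the window and does not show a bound site.

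The windows of 5 members are printed because they hold several cores, 1 core or none, and because the results below return to them. Each runs 5′ to 3′ on the strand of its gene, in TAIR10.1 coordinates, ending at the base before the gene start, with the MSA core in capitals (AACGG, or CCGTT where it lies on the other strand). In the order printed, the windows hold 3 cores (AT4G37490, chr4:17624309-17624558, minus strand), 4 cores, 1 of them within the longer consensus (AT5G06150, chr5:1861704-1861953, minus strand), 1 core (AT1G20930, chr1:7294747-7294996, minus strand), 6 cores (AT2G23430, chr2:9978091-9978340, minus strand) and no core (AT2G22490, chr2:9556168-9556417, minus strand). The first 3 are G2/M genes, the fourth an inhibitor and the last a G1 cyclin.
CYCB1;1: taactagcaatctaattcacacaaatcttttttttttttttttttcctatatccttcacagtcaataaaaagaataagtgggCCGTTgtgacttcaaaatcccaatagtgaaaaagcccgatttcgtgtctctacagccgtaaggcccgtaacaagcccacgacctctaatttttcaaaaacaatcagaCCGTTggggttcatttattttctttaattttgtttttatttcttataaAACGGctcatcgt
CYCB1;2: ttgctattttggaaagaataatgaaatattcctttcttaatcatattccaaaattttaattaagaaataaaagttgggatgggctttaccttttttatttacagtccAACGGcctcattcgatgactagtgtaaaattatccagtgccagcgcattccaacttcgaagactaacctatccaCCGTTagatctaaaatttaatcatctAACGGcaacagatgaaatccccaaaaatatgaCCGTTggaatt
CDKB2;2: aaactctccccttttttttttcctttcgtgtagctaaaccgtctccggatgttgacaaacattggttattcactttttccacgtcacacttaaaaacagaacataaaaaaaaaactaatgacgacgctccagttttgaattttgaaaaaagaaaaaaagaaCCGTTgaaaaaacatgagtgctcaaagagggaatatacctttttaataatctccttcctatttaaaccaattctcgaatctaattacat
KRP1: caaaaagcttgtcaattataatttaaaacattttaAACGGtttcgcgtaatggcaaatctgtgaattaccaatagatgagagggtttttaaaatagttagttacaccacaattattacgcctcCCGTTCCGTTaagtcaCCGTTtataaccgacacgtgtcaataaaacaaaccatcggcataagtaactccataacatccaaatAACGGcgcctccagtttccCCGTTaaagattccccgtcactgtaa
CYCD2;1: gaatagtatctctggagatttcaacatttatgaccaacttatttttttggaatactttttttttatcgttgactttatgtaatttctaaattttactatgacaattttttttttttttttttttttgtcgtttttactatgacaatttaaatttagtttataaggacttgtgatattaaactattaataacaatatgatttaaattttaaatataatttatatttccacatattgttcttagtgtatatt
Both cyclin windows with several cores hold them on both strands, and in KRP1 a pair of cores is adjacent with no base between.

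**Figure D1:**
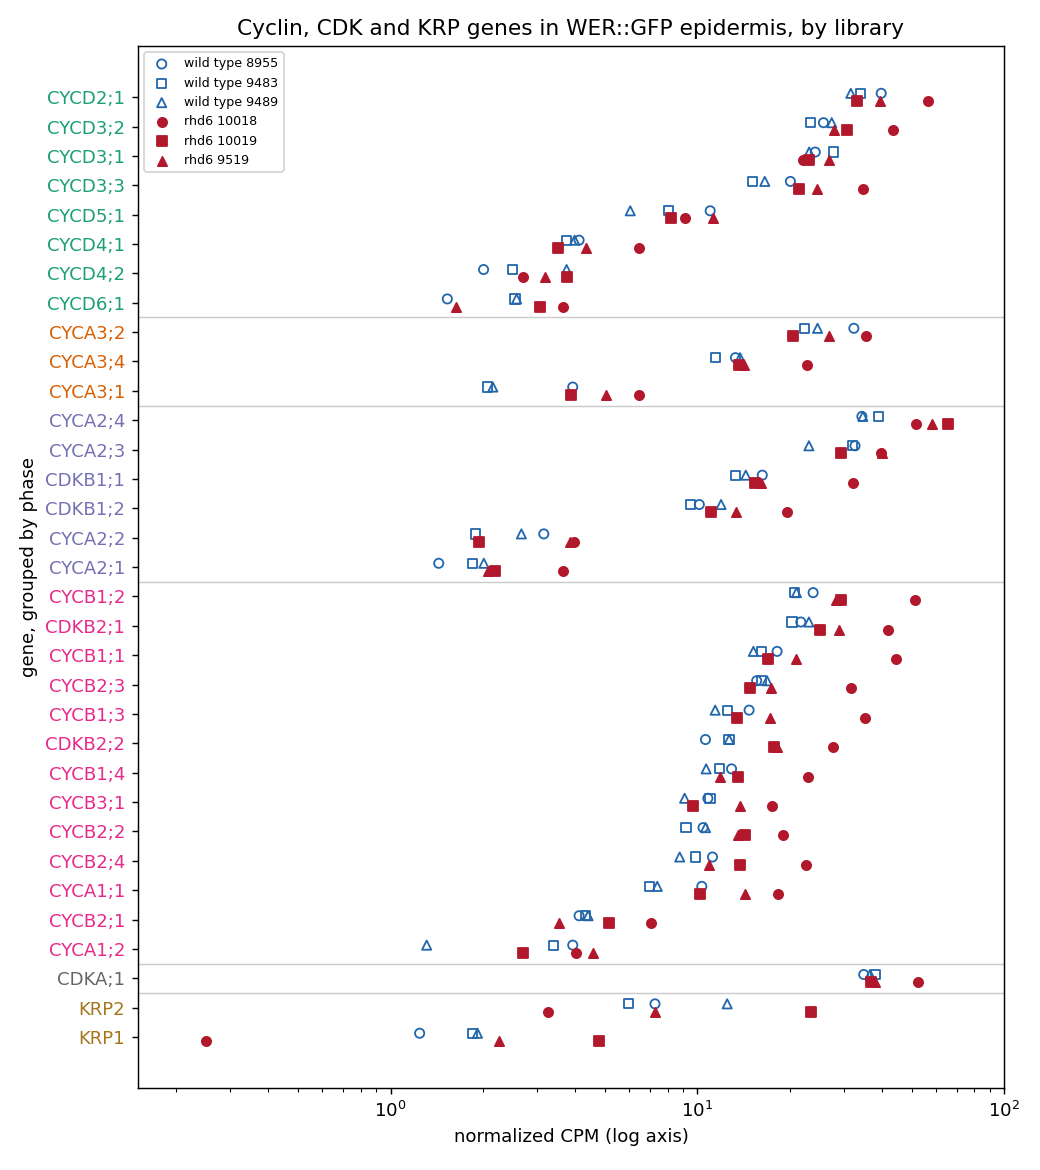
Normalized CPM (log axis) of the 33 listed members in each WER::GFP library, grouped by phase and ordered by wild-type mean, with open symbols for wild type and filled symbols for rhd6. In most rows the filled circle of the rhd6 library 10018 lies farthest right, and in the KRP rows it lies farthest left.

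Setting rhd6 beside wild type asks whether values of the members differ between the sorted epidermis of the genotypes. In these bulk sorts an effect of RHD6 and a change in the cells sorted cannot be told apart. No member passed the test: 0 of 33 were called by limma, against 4.12% of all genes tested, 0 by edgeR (3.78% of all), and 1, CYCA2;4, by DESeq2 (7.67% of all). At an unadjusted limma p below 0.05 there were 7 members, all with a higher mean in rhd6, against 6.74% of all genes in that direction. The estimates were above 0 for 32 of 33 members, against 54.3% of all genes, and their median log2 fold change was 0.35, against 0.04 for all genes tested. By phase the median was 0.20 for G1, 0.33 for S, 0.40 for S to M and 0.56 for G2/M genes. Fold changes are on the scale log2(normalized CPM + 1), which understates those of low genes.

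CYCA2;4 (AT1G80370), an A-type cyclin that with CDKB1 promotes division and holds back DNA copying without division, had the smallest p. Its normalized CPM was 34.4, 38.8 and 34.6 in wild type and 51.8, 65.8 and 58.2 in rhd6. All 3 rhd6 libraries lay above all 3 wild-type ones, with a log2 difference of 0.69 ± 0.17 (SE, n = 3 each, limma adjusted p = 0.0826, DESeq2 adjusted p = 0.0274). Its highest value was in library 10019, unlike that of the G2/M genes. The partner kinases CDKB1 had log2 differences of 0.43 ± 0.29 and 0.42 ± 0.24, and both genes had their highest value in library 10018. The other CYCA2 genes had differences of 0.23 to 0.38.

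The G2/M genes had the highest median, and 12 of 13 had their highest value in library 10018. CDKB2;2, a kinase of mitotic entry, was at 10.6, 12.7 and 12.7 normalized CPM in wild type and at 27.7, 17.8 and 18.2 in rhd6. Its rhd6 values lay above all wild-type values, with a log2 difference of 0.75 ± 0.22 (SE, n = 3 each, limma adjusted p = 0.135). CYCB1;2, with 4 MSA cores, was at 23.8, 20.8 and 21.0 in wild type and at 51.2, 29.5 and 28.2 in rhd6, again without overlap (0.65 ± 0.25, limma adjusted p = 0.242). In 2 more genes of the group, CYCB2;2 (0.58 ± 0.20) and CDKB2;1 (0.51 ± 0.22), the genotypes did not overlap. The 13 estimates ran from 0.21 to 0.75.

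For several G2/M genes a single library set the mean. CYCB1;1 was at 18.2, 16.2 and 15.2 normalized CPM in wild type and at 44.5 in rhd6 library 10018, but at 17.0 and 21.0 in the other rhd6 libraries, within or just above the wild-type range. Its log2 difference was 0.58 ± 0.34 (SE, n = 3 each, limma adjusted p = 0.421), and 0.19 without library 10018. CYCB1;3 had 35.2 in that library and 13.5 and 17.2 in the others, against 11.4 to 14.7 in wild type. CYCB2;3 and CYCB2;1 had no difference left without it, at -0.01 and 0.00. Part of the sequence of CYCB2;3 (17.3% of its 50-base stretches) and of CYCB1;2 (11.2%) also occurs in another gene, so the split of their reads is uncertain.

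In the S-phase group CYCA3;1 was at 3.93, 2.07 and 2.15 normalized CPM in wild type and at 6.47, 3.89 and 5.05 in rhd6. The groups overlapped by 1 library on each side (0.74 ± 0.27, SE, n = 3 each, limma adjusted p = 0.213). CYCA3;2, the S-phase cyclin with the highest level, was at 32.4, 22.3 and 24.6 against 35.5, 20.6 and 26.8. Those values overlap throughout, with a log2 difference of 0.04 ± 0.25.

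Of the G1 cyclins, CYCD3;3, the 1 member with an E2F motif, was at 20.104, 15.1 and 16.6 normalized CPM in wild type and at 34.6, 21.4 and 24.5 in rhd6. All its rhd6 libraries lay above wild type (0.59 ± 0.23, SE, n = 3 each, limma adjusted p = 0.244), and CYCD3;2 did not overlap either (0.38 ± 0.21). CYCD3;1 was the 1 member with an estimate below 0, at 24.2, 27.8 and 23.1 against 22.0, 23.1 and 26.8 (-0.06 ± 0.17). The 5 other G1 genes had differences of 0.19 to 0.26. The A-type kinase was at 34.8, 38.2 and 36.5 in wild type and at 52.4, 36.7 and 38.0 in rhd6, so that only library 10018 left the wild-type range.

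**Figure D2:**
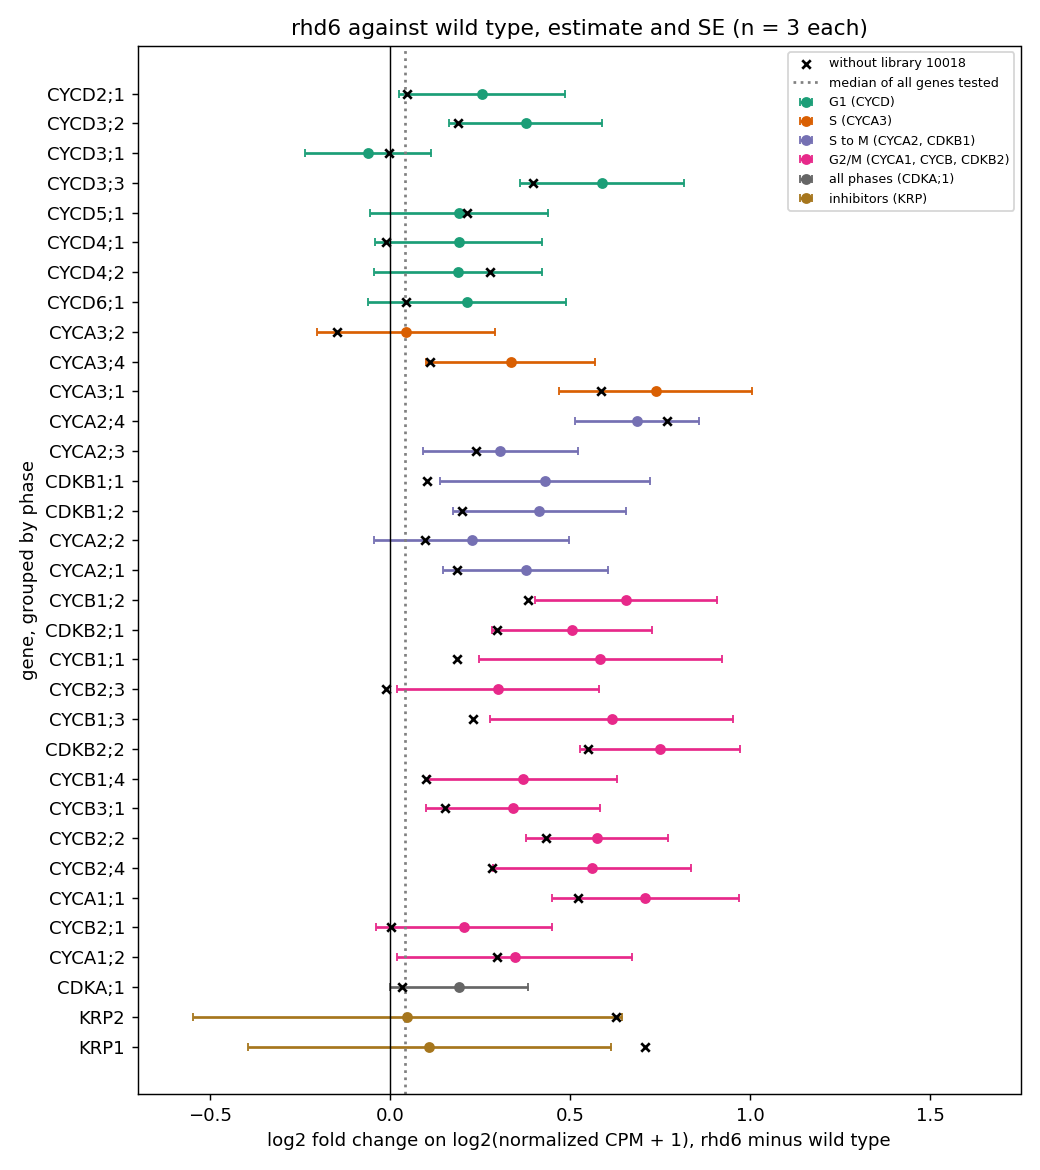
Log2 fold change of each listed member, rhd6 minus wild type, with its SE from limma (n = 3 each) and, as crosses, the estimate without rhd6 library 10018. The dotted line marks the median of all genes tested (0.04), and most crosses lie left of their points, while those of KRP1 and KRP2 lie farthest to the right of theirs.

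In all, 8 members had rhd6 values above all wild-type values, against 13.2% of all genes tested, and 0 had them below, against 14.3%. The 8 were 2 G1, 2 S-to-M and 4 G2/M genes. Library 10018 held the highest of the 6 values for 25 of 33 members, against 35% of all genes. The summed normalized CPM of the G2/M genes was 168, 155 and 153 in wild type and 344, 187 and 204 in rhd6, the 344 belonging to that library. Without it the median of all members was 0.20, with 29 of 33 above 0, and that of the G2/M genes 0.28, of S to M 0.19, of S 0.11 and of G1 0.12.

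Other genes differed between the same libraries. The stem cell factors PLT1 and PLT2, which mark the root meristem, had a summed value of 48.0, 45.1 and 42.4 in wild type and 86.6, 76.1 and 64.8 in rhd6, with no overlap, and PLT1 missed the limma threshold and passed that of DESeq2 (0.85 ± 0.19, limma adjusted p = 0.0544, DESeq2 adjusted p = 0.00559). The 4 root cap markers summed to 110 in library 10018, the lowest of all 6 libraries, and to 441 in library 10019, the highest. BRN1 and BRN2 carried that order, whereas FEZ was highest in library 10018 (23.4, against 9.37 to 16.5 in the others) and SMB was not lowest there. Genes of DNA replication summed to 782 in library 10018 and to 294 to 454 in the other 5. The part of these differences in the values of the members was not tested.

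KRP1 and KRP2 followed a different order of libraries. KRP2 was at 7.28, 5.95 and 12.5 normalized CPM in wild type and at 3.26, 23.4 and 7.27 in rhd6 libraries 10018, 10019 and 9519. KRP1 was at 1.24, 1.85 and 1.92 against 0.251, 4.76 and 2.26 in the same order. For both, library 10018 was the lowest of all 6 and library 10019 the highest, so the groups overlapped fully, with log2 differences of 0.05 ± 0.60 and 0.11 ± 0.51. The summed root cap markers and, within rhd6, the summed hair markers (19.2, 113 and 45.0) had the same order of rhd6 libraries, though FEZ and RHD6, a gene of each list, did not, and their part in the KRP values was not tested.

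In the authors' deposited table none of the 33 listed members had an FDR below 0.05, against 6.67% of all listed genes, and the lowest FDR among them in the authors' deposited table was 0.109, for CDKB2;2. Overlapping neighbours limit 10 members, among them all 4 CDKB genes. Use of strand in the counting is not stated in these sources, so their reads and those of the neighbour cannot be told apart.

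Beyond the members, 53 genes of the cell cycle were placed on 6 lists, and 52 were tested, of which limma and edgeR called 1, SIM (4.12% and 3.78% of all genes), and DESeq2 called 5 (7.67%). SIM, known as SIAMESE, blocks mitosis in leaf hairs by binding CDK complexes. It was at 27.3, 28.2 and 31.6 normalized CPM in wild type and at 12.4, 9.91 and 17.0 in rhd6, with no overlap. SIM fell by 1.117 ± 0.223 on the log2 scale (SE, n = 3 each, limma adjusted p = 0.0339). Leaving out any single library other than 9519 ended that call (limma adjusted p = 0.0537 to 0.179), as did removing the authors' scaling factors (0.0684).

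CCS52A1, an activator of the anaphase-promoting complex that turns cells from division to repeated DNA copying, was at 49.8, 51.1 and 53.7 normalized CPM in wild type and at 27.0, 16.7 and 30.7 in rhd6. No rhd6 library reached a wild-type one, and the log2 difference was -1.07 ± 0.24 (limma adjusted p = 0.0554, DESeq2 adjusted p = 0.00557). Another activator on that list, CCS52B, was at 29.3, 29.7 and 27.4 against 59.8, 39.1 and 37.4 (0.61 ± 0.22, limma adjusted p = 0.208). CCS52A2 had a log2 difference of -0.28 ± 0.19, also without overlap. CCS52A1 and CCS52A2 thus stood below wild type and CCS52B above it, none past the limma threshold.

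All 13 genes of the mitosis list had estimates above 0 (54.3% of all genes), with a median of 0.46. Of them 0 were called by limma (4.12% of all genes) and 3 by DESeq2 (7.67%). TPX2, a spindle assembly factor, was at 19.7, 19.6 and 17.8 normalized CPM in wild type and at 48.7, 34.04 and 31.5 in rhd6, without overlap (0.94 ± 0.21, limma adjusted p = 0.0530, DESeq2 adjusted p = 0.00394). The phragmoplast protein MAP65-3 (0.93 ± 0.25, limma adjusted p = 0.1003, DESeq2 adjusted p = 0.0197) and the kinesin HIK (0.85 ± 0.25, limma adjusted p = 0.135, DESeq2 adjusted p = 0.0477) did not overlap either. Library 10018 was the highest for all 3. At an unadjusted limma p below 0.05 there were 5 of the 13, against 6.74% of all genes in that direction.

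Of 14 replication genes 13 had estimates above 0 (54.3% of all genes), with a median of 0.42 and 0 called by limma (4.12% of all genes). The helicase subunits MCM6 (0.79 ± 0.27, limma adjusted p = 0.194) and MCM3 (0.68 ± 0.26) and the MCM-binding protein ETG1 (0.66 ± 0.25) had the smallest p. Among retinoblastoma and E2F genes 0 of 8 were called, with a median of 0.19, RBR1 at 0.44 ± 0.19, DEL1 at 0.42 ± 0.25 and DEL3 at 0.28 ± 0.23. Among 7 CDK partners and activating kinases 0 were called, with a median of 0.29, CDKD;3 at 0.40 ± 0.19, CDKD;2 at 0.36 ± 0.29 and CKS2 at 0.29 ± 0.24. Without library 10018 the medians were 0.24 for mitosis and 0.25 for replication.

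Cells sorted by COBL9::GFP held most members, mostly at lower rescaled levels than wild-type WER::GFP cells. Of the 35 members, 28 had a mean of 1 FPKM (fragments per kilobase and 1e6 reads) or more, against 48.2% of all listed genes. That share counts genes listed at 0. The 28 were 8 of 10 G1, 2 of 3 S, 3 of 6 S-to-M and 12 of 13 G2/M genes, with the A-type kinase and both KRP genes. In library A alone, the only G2/M genes at 1 FPKM or more were CYCB1;2 (1.14) and CDKB2;1 (1.37). The A-type kinase again led, at 17.3, 18.0 and 20.21 FPKM in libraries A, B and C, at the 82.2nd percentile. KRP2 came next at 16.2, 16.3 and 14.6, and both varied little between libraries. CYCD7;1, known from the stomatal lineage, was listed at 0 in all 3 libraries.

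The WER::GFP and COBL9::GFP tables were normalized separately, so values across them are set side by side per length and rescaled to 1e6 over their 17608 shared genes, with no test. Over the 17188 shared genes at 1 or more in wild-type WER::GFP cells, the median ratio of COBL9::GFP to wild-type WER::GFP was 0.763, and for the 33 listed members it was 0.254. A ratio of 0.5 or less was found for 24 members, against 29.8% of all genes. All COBL9::GFP libraries lay below all wild-type WER::GFP libraries for 26 members, against 44.3% of all genes, and above for 1 member, KRP2, against 7.14%. On the same scale the 5 hair markers had a median ratio of 1.27 (0.869 to 1.46) and the 4 root cap markers 1.33 (0.0842 to 2.10). By these medians the COBL9::GFP sort was not set apart from the WER::GFP sort by hair markers more than by root cap markers. The medians average unlike libraries. In libraries A, B and C the rescaled hair sums were 2284, 600 and 1116, against 841 to 1513 in wild-type WER::GFP. The root cap sums were 42.8, 651 and 349, against 191 to 247. Library A was thus above the WER::GFP range for hair only, and libraries B and C for root cap only.

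By phase, G2/M genes had a median ratio of 0.183 (0.130 to 0.537), S-phase genes 0.240 (0.209 to 0.247), S-to-M genes 0.262 (0.0549 to 0.526) and G1 genes 0.558 (0.251 to 0.807). Summed over the group, the rescaled level went from 162 ± 7.76 in wild-type WER::GFP to 32.6 ± 21.1 in COBL9::GFP cells for G2/M genes (SD, n = 3 each), from 42.9 ± 6.36 to 9.61 ± 2.04 for S genes, from 93.6 ± 5.90 to 34.9 ± 24.7 for S-to-M genes, and from 123 ± 6.95 to 47.3 ± 17.2 for G1 genes. In each of these groups the 3 COBL9::GFP sums lay below the 3 of wild type. The rescaled scale sets rhd6 library 10018 higher than the authors' scale does (a G1 sum of 214, against 178 normalized CPM), so rhd6 was compared with wild type by normalized CPM.

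**Figure D3:**
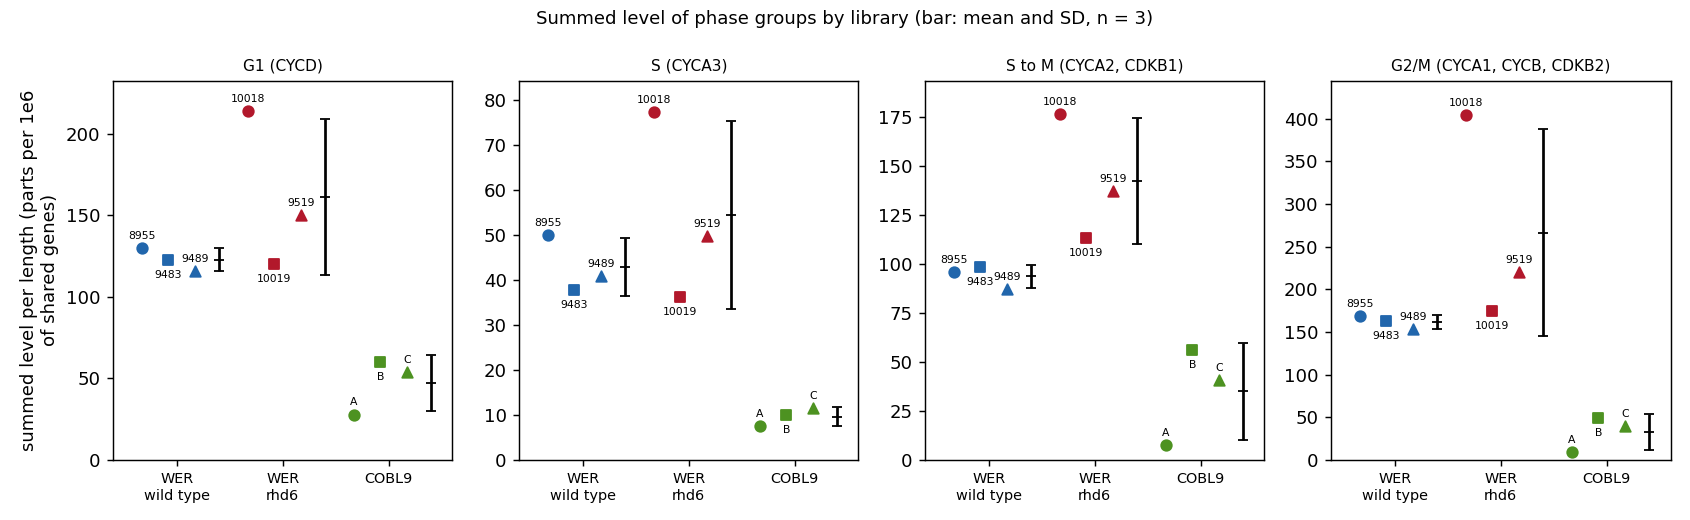
Summed level per length (parts per 1e6 of the genes shared by both tables) of the G1, S, S-to-M and G2/M members in each library of wild-type WER::GFP, rhd6 WER::GFP and COBL9::GFP cells, with mean and SD (n = 3) as bars. Every COBL9::GFP library lies below every WER::GFP library in all 4 groups, and library A is the lowest of all.

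Within the groups the genes did not all keep to the order of the phases. CYCB1;3, with a ratio of 0.130, and CYCB1;1, with 0.152, were the lowest G2/M genes, and CYCA1;2, with 0.537, was the highest. Among G1 genes the well-read CYCD2;1 (0.254), CYCD3;2 (0.251) and CYCD3;3 (0.284) stood near the S-phase genes. CYCD4;1 (0.673), CYCD4;2 (0.724) and CYCD6;1 (0.807) stood near the A-type kinase (0.598). CYCD3;1 (0.668) did so only as a mean of unlike libraries, at 3.57, 18.3 and 12.1 FPKM in A, B and C. Only KRP1 (1.83, but below 1 in library A) and KRP2 (1.64) of the 33 members were above 1, as were 30.6% of all genes. KRP2 was at 21.5 ± 1.01 on the rescaled scale in COBL9::GFP cells and 13.1 ± 5.05 in wild-type WER::GFP cells.

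The 3 COBL9::GFP libraries were not alike in the genes of division. Of the 28 members at 1 FPKM or more, 24 were lowest in library A, against 51.4% of all such genes, and 18 were there at 0.5 times or less of both other libraries, against 18.1%. The 18 held 12 of 12 G2/M genes, 2 of 3 S-to-M genes, 3 of 8 G1 genes, 0 of 2 S genes and KRP1. CYCA2;4 went from 1.22 FPKM in library A to 23.6 and 14.5 in libraries B and C. CYCB1;1 went from 0.585 to 3.11 and 2.15, and CYCB1;2 from 1.14 to 5.52 and 3.70.

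Other members were level across the same libraries. CYCA3;2 was at 3.49, 3.82 and 4.40 FPKM, CYCD2;1 at 5.79, 6.07 and 7.60, and CYCD4;1 at 1.802, 1.41 and 1.795 in libraries A, B and C. Summed over the groups, G2/M genes were at 6.57, 36.2 and 28.5 FPKM, S-to-M genes at 5.69, 41.2 and 29.4, G1 genes at 20.6, 44.1 and 39.1, and S genes at 5.50, 7.25 and 8.27. The S-to-M and G2/M sums thus moved together, and the S sum moved least. In libraries B and C most of the S-to-M sum came from CYCA2;4 and CYCA2;3 (the latter at 1.52, 12.3 and 9.47 in libraries A, B and C). CDKB1;1 of that group moved less, at 2.46, 3.77 and 3.57.

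Marker genes also differed between the 3 libraries. All 4 root cap markers were lower in library A than in the others, with sums of 31.6 FPKM against 478 and 251, and BRN1, a root cap factor, at 14.6 against 215 and 112. PLT1 and PLT2 summed to 0.449 against 7.61 and 4.05. The 5 hair markers went the other way, with 1686 against 440 and 803. Cortex and endodermis markers (11.2 against 1.55 and 7.75) and stele markers (98.4 against 50.3 and 58.1) were also highest in library A by sum. Most of the stele sum was AHK4 (92.1 against 47.8 and 54.2), and PHB of the same list was lowest in library A (0.223 against 0.677 and 0.593). The part of any of these cells in the values of the division genes was not tested. In library A, where root cap and PLT markers were lowest, the G2/M sum was 0.055 times and the S-to-M sum 0.082 times the wild-type WER::GFP mean, per length, while that of G1 genes was 0.226, of S genes 0.174 and of the A-type kinase 0.553 times. KRP2 was at 1.67 times and KRP1 at 0.6002 times that mean in library A, against 2.66 and 2.24 times for KRP1 in libraries B and C.

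Without library A the ratios of the summed levels were 0.275 for G2/M, 0.249 for S, 0.518 for S-to-M, 0.465 for G1 genes and 1.752 for the KRP genes. With all 3 libraries they were 0.202, 0.224, 0.373, 0.385 and 1.67. The S-to-M genes thus stood near the S genes by median and near the G1 genes by sum, with or without library A. Without that library 22 members had a ratio of 0.5 or less, against 28.8% of all genes.

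**Figure D4:**
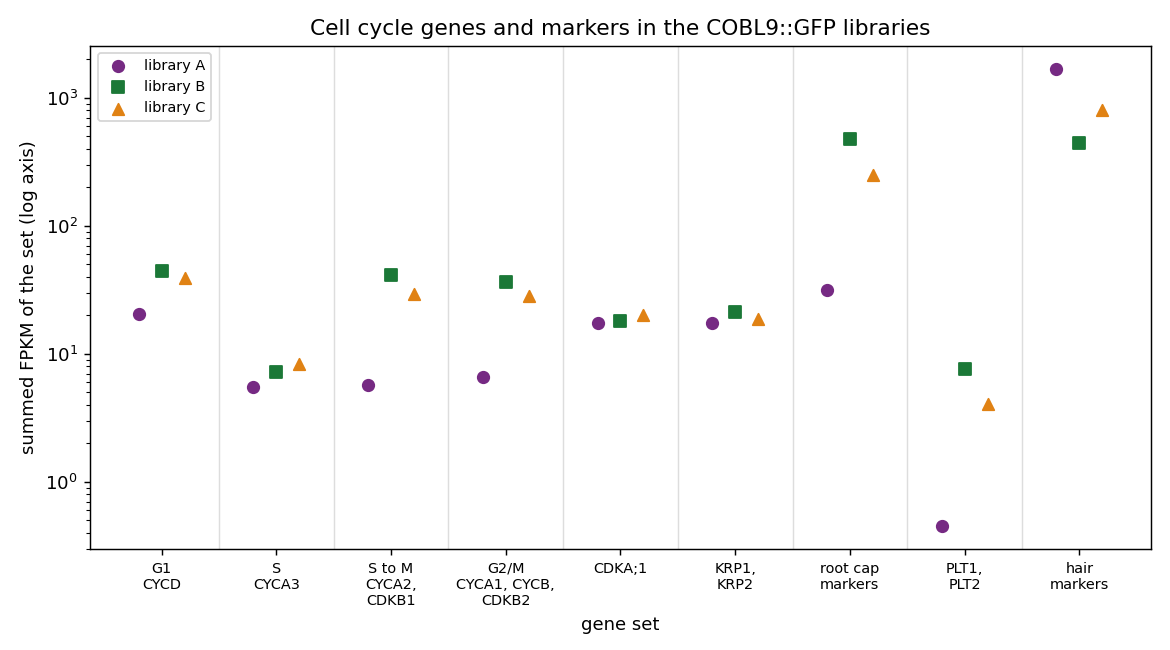
Summed FPKM (log axis) of each group of members and of 3 marker lists in the COBL9::GFP libraries A, B and C. G2/M and S-to-M genes, root cap markers and PLT1 with PLT2 are lowest in library A, hair markers are highest there, and the A-type kinase lies between 17.3 and 20.21.

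The other cell cycle lists were also compared between COBL9::GFP and wild-type WER::GFP cells, again per length and with no test. All 14 replication genes had a ratio of 0.5 or less, with a median of 0.133. Of 13 mitosis genes 10 had one, with a median of 0.242, against 29.8% of all genes. By medians over all 3 COBL9::GFP libraries, the replication list was thus lower than the mitosis list. By the same measure the S-phase members (0.240) were higher than the G2/M members (0.183). That order of the members was reversed in the summed ratios without library A, at 0.249 for S and 0.275 for G2/M. SIM was at 56.7, 20.3 and 27.7 FPKM in libraries A, B and C and had a ratio of 0.748. CCS52A1 was at 37.8, 21.0 and 33.8, with a ratio of 1.01. Both had their highest value in library A, as did 7 of the 53 genes of the 6 lists. Another 41 were lowest there, among them the other 6 inhibitors and both other activators. Of all genes at a mean of 1 FPKM or more, 51.4% were lowest in library A.

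In sieved root hairs, which are the outgrowths of cells that no longer divide, 14 of the 35 members were listed. The table lists only genes with a mean of 3 FPKM or more. Of the 33 members read in WER::GFP cells, 13 were listed, against 75.7% of all genes of that table. The 14 were 5 G1, 2 S, 1 S-to-M and 4 G2/M genes with the A-type kinase and KRP2. The 3 libraries resembled each other less than the sorted ones (r = 0.372 to 0.651 across genes), and 8 of the 14 members were listed at 0 in at least 1 library, against 19.9% of all listed genes. Each value is therefore given by library, with no mean.

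KRP2 was at 11.8, 63.3 and 24.9 FPKM and the A-type kinase at 7.68, 14.0 and 34.2 in libraries 1, 2 and 3. CYCD2;1 was at 6.05, 20.5 and 40.4, CYCD3;2 at 13.1, 11.7 and 8.66, CYCA3;2 at 4.09, 38.0 and 13.3 and CYCA3;4 at 6.56, 13.7 and 4.92. These 6 were the members above 0 in every library without a value under 1. CYCD3;1 (0, 0.0147 and 22.0) and CDKB1;2 (0.314, 11.1 and 0) rested on 1 library each, and CYCD3;3 was at 0, 13.4 and 9.15.

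The G2/M genes in sieved hairs were listed at 0 in at least 1 library each. CDKB2;1 was at 0, 5.49 and 41.3 FPKM, CDKB2;2 at 0, 3.00 and 9.61, CYCB1;4 at 4.44, 0 and 18.2, and CYCA1;1 at 2.86, 0 and 9.43. CYCD1;1 was at 0, 24.9 and 28.2, although it is not among the genes of the WER::GFP table and had 0.1005 to 0.244 FPKM in COBL9::GFP cells. It overlaps a gene on the other strand, AT1G70209. None of the root cap markers or of PLT1 and PLT2 was listed. Of the stele markers 3 of 5 were listed, with sums of 4.04, 104 and 58.1 FPKM in libraries 1, 2 and 3. For cortex and endodermis 2 of 3 markers were listed, with sums of 0, 54.3 and 7.83. The part of such cells in the values of the members was not tested. SIM was at 58.0, 186 and 98.2 FPKM, above every member in libraries 1, 2 and 3.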

How the data were processed

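RNA-seq tables of sorted WER::GFP and COBL9::GFP cells and of sieved root hairs of Arabidopsis were used, 12 libraries in 4 groups taken from the labels. Per the submitters' processing notes, which give no role or order, edgeR, Cufflinks, HTSeq 0.6.1, TopHat2 (2.0.3, 2.0.9) and CASAVA 1.8.2 were involved, and the annotation was that of TAIR10, per the labels. The rhd6 table holds a signal of normalized CPM made by the authors, with their log2 fold changes, log2 mean levels, p-values, FDR and other columns, the likelihood ratio with a mark of low FDR, per the file headers. Values were multiples of what 1 read is worth (100% to a tolerance of 0.01 reads), which gave back the whole reads: 1 read is worth 0.0431 to 0.0957, and edgeR's test on them called 664 genes. The COBL9::GFP and sieved tables hold the authors' FPKM values, with depth not given in the sources used here. Since a 0 in FPKM may reflect a failed estimate, it is reported as listed at 0.

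The files hold normalized values, so the main test was limma (3.58.1, R 4.3.3, two-sided, intensity trend) of log2(value + 1) for the 17575 genes that reached 1 in 3 or more of 6 libraries, with Benjamini-Hochberg adjusted p below 0.05, and was tested on simulated data. All 33 listed members passed that filter. Alternatives were count tests of the recovered reads (DESeq2 1.42.0, edgeR 4.0.16), other filters, pseudocounts and scalings, and leaving out each library. The column names carry library numbers that give the group but not the replicate number, and these numbers are not an order of replicates. Per-length levels used the summed exon length of RefSeq's TAIR10.1 annotation, in which 110 of 110 IDs of members and lists were found. Promoter windows of 250 bases and all coordinates are those of RefSeq TAIR10.1, since the deposited tables hold no coordinates. Read sharing was checked with stretches of 50 bases. All members are named, and of the other cell cycle lists each gene past the test, or otherwise the 3 with the smallest unadjusted p. SIM, CCS52A1 and the other genes named for hair cells outside that rule were chosen after their values were seen. The members, lists, phase groups and tests were chosen with earlier results of these data known.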

Additional observations from a re-analysis of the deposited data

How the results depend on the processing

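Over all genes limma called 724, 431 with a filter at a mean of 5 (fewer genes tested), 222 to 784 with 1 library left out and 1348 with DESeq2, for which the cause was not tested. Members called stayed at 0 in every alternative but DESeq2, with 1. Some estimates, none of them called, changed sign with 1 library left out. Their ranges were -0.15 to 0.23 for CYCA3;2 (-0.07 without 9483), -0.011 to 0.51 for CYCB2;3, -0.14 to 0.014 for CYCD3;1, -0.011 to 0.35 for CYCD4;1, -0.39 to 0.71 for KRP1 (-0.011 without 8955) and -0.63 to 0.63 for KRP2 (-0.03 without 8955, -0.15 without 9483), the ends mostly without 10018 or 10019. KRP1 was also at -0.13 with a pseudocount of 0.1. Members at a mean FPKM of 3 or more in COBL9::GFP cells were 13, against 28 at 1 or more. Members listed in sieved hairs ranged from 9 to 14 with 1 library left out, 9 being without library 3. The phase medians and summed ratios kept their direction in the alternatives run, among them the longest transcript as length, an alternative chosen after seeing the data. No paired analysis was possible because the columns carry library numbers and no replicate numbers, so the replicate block was not run. Reads limit KRP1 most, at 0.251 normalized CPM in library 10018, and the depth of the FPKM tables is unknown.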

Other observations

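Several cell cycle genes outside the set had levels in COBL9::GFP cells near those in wild-type epidermis, per length and with no test. They were chosen after their values were seen. CKS1, a small protein that docks on CDKs, was at 16.1, 13.1 and 14.6 FPKM in libraries A, B and C, with a ratio of 1.02 to wild-type WER::GFP. The CDK-activating kinase CDKF;1 was at 17.1, 14.4 and 14.9, with a ratio of 0.929. AUR2, a kinase of mitosis, was at 0.940, 12.9 and 9.92 FPKM, and its ratio of 0.937 is a mean of unlike libraries. By that mean it differed from most of the mitosis list. It was lowest in library A, however, as were 12 of the 13 genes of that list, itself among them. KRP6, another inhibitor, was at 3.23, 17.2 and 13.1, with a ratio of 1.39, and so was lowest in library A like the division genes. KRP3 stood at the other end, at 0.308, 0.717 and 0.605 FPKM and a ratio of 0.0866. In sieved hairs CKS1 was at 39.1, 170 and 121 FPKM and KRP6 at 13.8, 63.8 and 22.1. By list, 6 of 7 other inhibitors and 5 of 7 CDK partners were listed in sieved hairs, against 4 of 14 replication genes and 1 of 13 mitosis genes, KNOLLE, a syntaxin of the cell plate, which was at 0, 12.7 and 2.18 FPKM.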
